A study of Homo sapiens with 6 samples.

Results

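The kinesin superfamily genes described here are 41 human genes listed by symbol as members of the kinesin family. All but KIFAP3, which encodes the non-motor accessory subunit of the KIF3 motor, carry the symbols of kinesin motor proteins. All 41 were found among the 60658 Ensembl identifiers of the deposited tables, and each is a protein-coding gene in the annotation. Kinesins are motor proteins that couple ATP hydrolysis to movement along microtubules or to the shortening of microtubule ends. Those of dividing cells build the spindle, move chromosomes and form the midzone for cytokinesis, and others carry vesicles, mitochondria or ciliary cargo along interphase microtubules. Taxanes bind and stabilise the same microtubules.

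The genes were followed through 6 castration-resistant prostate carcinoma lines, each sequenced once as bulk RNA. C4-2B, which expresses the androgen receptor, and DU145, which does not depend on it, are the parents. TaxR is a docetaxel-resistant subline of C4-2B kept under 5 nM docetaxel, and CabR is a cabazitaxel-resistant subline of TaxR kept under 5 nM cabazitaxel. DTXR is the docetaxel-resistant subline of DU145 and CTXR the cabazitaxel-resistant subline of DTXR, kept at the same doses. All lines grew in serum-supplemented medium and were untreated before harvest, per the labels, which do not say whether a subline is 1 clone. In the labels TaxR is also marked old, without a reason. Values are FPKM as deposited, which divide fragments by transcript length and by library size, so that levels can be compared between genes. Depth is unknown, since the files hold no read totals.

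The lines carried the markers of their lineage, and TaxR also carried low levels of those of the other. Of 10 marker genes of the C4-2B lineage, all reached 1 FPKM across C4-2B, TaxR and CabR and 3 did so in each DU145-lineage library. Of 10 marker genes of the DU145 lineage, all reached 1 FPKM across DU145, DTXR and CTXR, 2 in C4-2B and 3 in CabR. In TaxR all 10 did, between 1.39 and 60.8 FPKM with a median of 2.44, against a median of 194 in DU145. Over the 8 of these genes that were under 1 FPKM in C4-2B, the TaxR level had a median of 1.46% of the DU145 level, with a range of 0.362% to 5.67%. Mitochondrial genes held 17.9% of total FPKM in C4-2B cells, 27.9% in TaxR, 26.5% in CabR and 35.3% to 40.7% in the DU145 lineage. The drug efflux pump gene ABCB1 had 0.259 and 0.304 FPKM in the parents C4-2B and DU145 and at least 68.0 in each resistant line.

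By role, the 41 genes were divided into 13 mitotic kinesins, 18 transport kinesins and 10 kinesins of cilia, signalling and other functions. The mitotic and transport groups contributed similar amounts of RNA. Summed over the 13 mitotic genes, the level was 273 FPKM in C4-2B cells, 199.9 in TaxR and 278 in CabR, beside 281 in DU145 and 247 and 219.6 in its sublines DTXR and CTXR. Summed over the 18 transport genes, it was 269.7, 262, 253, 286, 266 and 235 FPKM in the same order. Mitotic kinesins thus held 47.7% of all kinesin FPKM in C4-2B cells, 40.5% in TaxR and 49.1% in CabR. In the DU145 lineage this share lay between 45.6% and 47.3%. The third group was low, with sums of 26.6 to 35.2 FPKM.

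A gene was counted as measured when it reached 1 FPKM in at least 1 library. This left 35 of the 41 kinesins, namely 12 mitotic, 16 transport and 7 other genes, of which 27 reached 1 FPKM in all 6 libraries. The testis-enriched mitotic gene KIF2B was listed at 0 in every library. The neuronal transport motors KIF5A and KIF21B and the genes KIF6, KIF12 and KIF19 stayed below 1 FPKM throughout, the highest value being 0.862 for KIF5A in CTXR. KIF26B was measured only through CTXR (1.19 FPKM) and KIF27 only through DU145 (1.34 FPKM). These 2 genes passed because of a single high library. KIFC3, KIF17, KIF7 and KIF26A passed only through DU145-lineage libraries and were under 1 FPKM across C4-2B, TaxR and CabR. Counts and medians over measured members are therefore given below as descriptions.

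The parental lines differed from each other in kinesin makeup in more genes than any resistant line differed from its parent. With 1 library per line there is no replicate check, and a gene is called higher or lower by size, if log2 of (FPKM + 1) differs by 1 or more. Adding 1 FPKM makes ratios of low genes smaller than they are. Between DU145 and C4-2B, 10 of 41 kinesins were past this size, 7 higher and 3 lower in DU145, where 36.7% of the 17436 measured genes were past it (17.3% higher and 19.5% lower). The share of kinesins past the size was thus below that of all measured genes, also when taken over the 35 measured kinesins. KIFC3, a minus-end motor of epithelial junctions and Golgi positioning, had 0.295 FPKM in C4-2B and 86.7 in DU145, a log2 ratio of 6.08. KIF1A, the neuronal carrier of synaptic vesicle precursors, went the other way with 13.3 and 0.878 FPKM and a log2 ratio of -2.93. Both lines therefore had a transport kinesin that was abundant in 1 lineage and near the floor in the other.

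A further 3 of the 10 are mitotic. KIF11, the spindle motor Eg5 that pushes the poles apart, had 13.4 FPKM in C4-2B and 28.6 in DU145. KIF15, which can share that task, had 3.27 and 11.1 FPKM, and KIF18A, which limits the oscillation of chromosomes at the metaphase plate, had 2.18 and 10.2. These 3 were each higher in DU145. The hedgehog pathway regulator KIF7 had 0.0313 and 1.67 FPKM, KIF26A 0.191 and 3.11, and the endosome motor KIF16B 0.785 and 2.79. KIFC2 had 53.3 FPKM in C4-2B and 25.2 in DU145, and KIF9 12.2 and 4.55. When the non-mitochondrial FPKM of each library was set to 1 common total, which shifts the median of all genes in this comparison by 0.19, 10 kinesins were higher and 1 was lower in DU145 by this size. With equal upper quartiles 9 were higher and 2 lower.

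**Figure D1:**
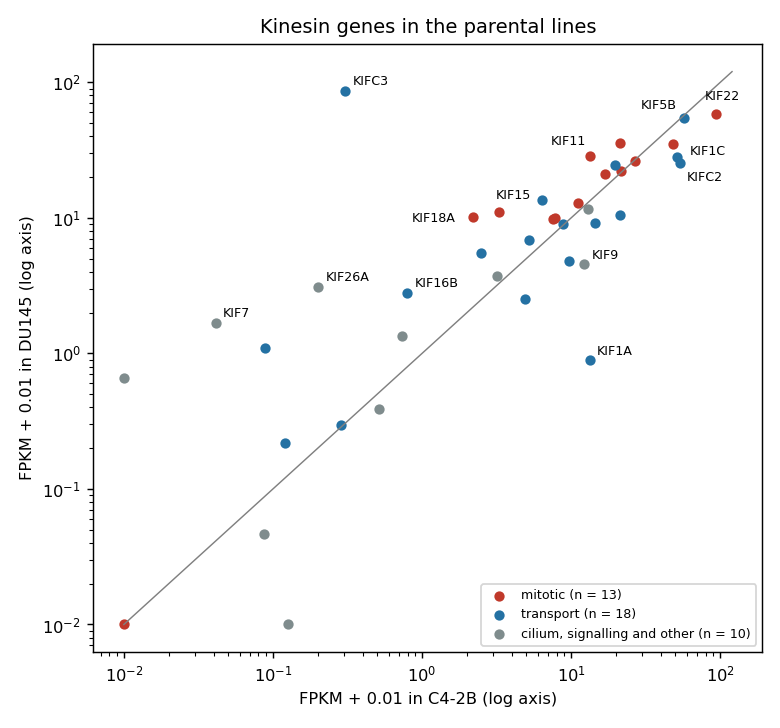
Levels of the 41 kinesin genes in the parental lines, as FPKM plus 0.01 on log axes, with C4-2B on the x axis, DU145 on the y axis and the diagonal marking equal levels. Each point is 1 gene in 1 library per line, colours give the role groups, and genes past the size rule or with a mean above 40 FPKM are named. KIFC3 (0.295 and 86.7 FPKM) lies far above the diagonal and KIF1A (13.3 and 0.878 FPKM) far below it.

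The mitotic kinesins shared a short sequence near their start sites. Many genes expressed in late G2 and mitosis carry a cell cycle genes homology region, or CHR, a short element near the transcription start that is bound by the LIN54 subunit of the DREAM and MYB-MuvB complexes, often next to a CCAAT box bound by NF-Y. The RefSeq table of promoter windows (GRCh38.p14, 250 bases before to 50 bases after each start) held 33 of the 41 genes. Windows were searched on both strands for the usual form of the CHR, TTTGAA, which reads TTCAAA on the other strand. They were also searched for its variant TTTAAA and for a further variant with a CpG, TTCGAA, both of which read the same on either strand. The CCAAT box was searched as CCAAT on both strands, and none of these motifs contains another. Each of the 12 measured mitotic kinesins had at least 1 CHR match, and KIF2B, which was listed at 0, had none. Among the transport kinesins with a window, 2 of 13 had a match, and among the remaining kinesins 1 of 7. A match was present for 22.2% of the 11732 measured genes that have a window and in 25.1% of all 35116 windows. The form TTTGAA alone occurred in 9 of the 12 and in 13.3% of measured genes.

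The matches also lay close together. All 12 measured mitotic kinesins had a CHR match between 60 bases before and 50 bases after the start, a range chosen after the positions were seen. None of the 13 transport kinesins with a window did. The measured transport genes KIF13B, KIFC2 and KIFC3 had no window and were not searched. Of the 7 remaining kinesins 1 did, KIF24, and 7.83% of measured genes with a window did. CCAAT was found in 10 of the 12, against 4 of 13 transport kinesins and 42.8% of measured genes. The following stretches are the 100 bases before the start of the 7 mitotic kinesins whose CHR match near the start falls before it. They are shown 5′ to 3′ on the strand of the gene, with CHR and CCAAT matches on either strand in capitals, together with the same stretch of the transport gene KIF5C, which holds neither (its window has 1 CCAAT match farther upstream).
KIF4A (chrX:70290004-70290103, plus strand): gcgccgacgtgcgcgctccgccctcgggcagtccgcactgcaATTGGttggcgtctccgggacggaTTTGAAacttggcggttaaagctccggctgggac
KIF11 (chr10:92593030-92593129, plus strand): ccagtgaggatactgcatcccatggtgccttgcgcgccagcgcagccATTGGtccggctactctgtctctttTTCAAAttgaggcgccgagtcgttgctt
KIF15 (chr3:44761694-44761793, plus strand): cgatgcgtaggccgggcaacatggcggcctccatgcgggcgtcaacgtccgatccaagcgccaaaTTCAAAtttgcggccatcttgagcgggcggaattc
KIF18A (chr11:28108157-28108256, minus strand): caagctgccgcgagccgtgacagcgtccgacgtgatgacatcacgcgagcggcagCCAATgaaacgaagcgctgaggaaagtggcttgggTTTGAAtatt
KIF20A (chr5:138179012-138179111, plus strand): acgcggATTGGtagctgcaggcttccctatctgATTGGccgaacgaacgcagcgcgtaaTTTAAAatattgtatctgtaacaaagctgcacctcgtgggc
KIF22 (chr16:29790651-29790750, plus strand): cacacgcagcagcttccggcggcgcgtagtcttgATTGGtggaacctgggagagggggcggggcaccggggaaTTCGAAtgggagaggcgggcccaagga
KIF23 (chr15:69414249-69414348, plus strand): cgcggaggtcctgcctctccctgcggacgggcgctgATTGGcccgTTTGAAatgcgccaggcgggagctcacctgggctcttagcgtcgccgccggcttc
KIF5C (chr2:148875127-148875226, plus strand): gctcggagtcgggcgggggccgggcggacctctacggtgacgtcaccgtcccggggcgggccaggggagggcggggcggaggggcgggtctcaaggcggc

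In 6 of these 7 mitotic stretches a CCAAT match, read as CCAAT or ATTGG, lies upstream of the CHR match, and KIF15 has none. In KIF14, KIF18B, KIF20B and KIFC1 the CHR match near the start lies 2 to 31 bases into the transcribed side, and in KIF2C it spans the start. These letters describe the windows, and no binding was measured.

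**Figure D2:**
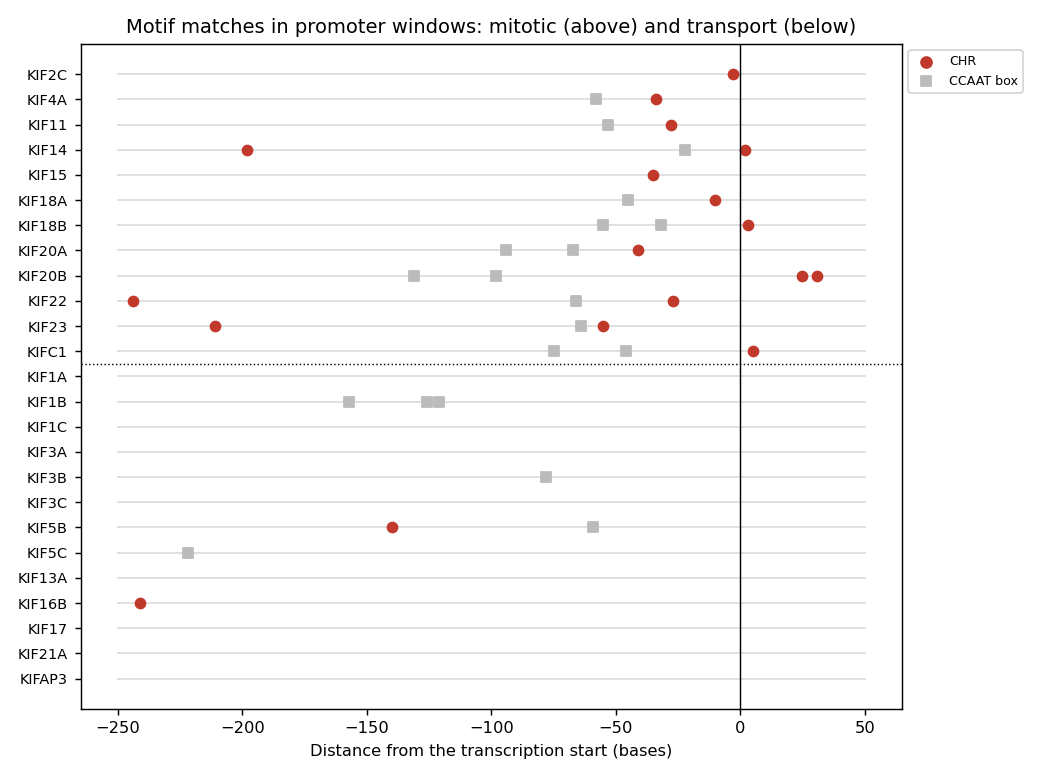
Positions of CHR matches (circles) and CCAAT matches (squares) along the promoter windows of the 12 measured mitotic kinesins, above the dotted line, and the 13 transport kinesins with a window, below it. The x axis gives the distance from the transcription start in bases, and KIF22 and KIF1B each combine 2 windows, those of KIF22 overlapping. Each mitotic row has a circle between 60 bases before and 50 bases after the start, and no transport row has.

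Along the C4-2B lineage most mitotic kinesins had their smallest value in TaxR and their largest in CabR, although only 1 reached the size rule. Against C4-2B, 11 of the 12 measured members lay below 0 in TaxR, with a median log2 ratio of -0.39 beside a median of 0.00 over all measured genes, of which 50.2% lay below 0. In CabR 9 of 12 lay above 0, with a median of 0.25, where 44.9% of all measured genes lay above 0. Both comparisons use the same C4-2B library. From TaxR to CabR, 11 of 12 lay above 0, against 46.5% of all measured genes, and the median was 0.61. Of the 3 libraries of this lineage, TaxR was the lowest for 10 of the 12 genes and CabR the highest for 9. Over all measured genes with 3 distinct values, TaxR was the lowest for 29.97% and CabR the highest for 29.7%.

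None of the 13 mitotic genes was past the size rule in TaxR against C4-2B, where 8.16% of measured genes were past it (2.52% higher and 5.64% lower). None was past it in CabR against C4-2B either, where 8.87% of measured genes were (2.67% higher and 6.2% lower). From TaxR to CabR 1 of the 41 kinesins was past it, KIF18A, which was higher. There 3.59% of measured genes were past it (1.75% higher and 1.84% lower). KIF18A (ENSG00000121621, chromosome 11, 28020620 to 28108308, minus strand, GRCh38) had 2.18 FPKM in C4-2B cells, 1.35 in TaxR and 4.13 in CabR, so that CabR was the highest and TaxR the lowest. The log2 ratio from TaxR to CabR was 1.12. KIF18A overlaps METTL15 on the opposite strand, which had 4.68, 6.65 and 5.87 FPKM in these lines. Whether counting used strand is not stated, so the level of KIF18A is uncertain. The same holds for KIF20A, which overlaps CDC23 and BRD8, and for KIF4A, which overlaps PDZD11. KIF15 overlaps TMEM42 on its own strand, where a strand setting cannot separate them, so its level is uncertain too.

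KIF2C, a depolymerase that corrects wrong attachments at centromeres, stood just under the rule, with 26.8 FPKM in C4-2B cells, 14.6 in TaxR and 30.2 in CabR. Its log2 ratio from TaxR to CabR was 0.9986, and it crossed 1 once the upper quartiles of the libraries were made equal. KIF18B, which shortens astral microtubules, had 16.8, 12.0 and 24.0 FPKM in the same order. KIF20A, a midzone motor of cytokinesis, had 21.6, 17.5 and 33.4 FPKM. All 3 were lowest in TaxR and highest in CabR.

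KIF11 followed the same order with 13.4, 11.6 and 18.3 FPKM across C4-2B, TaxR and CabR. KIF23, the motor subunit of centralspindlin, had 21.3, 15.6 and 23.5 FPKM, and KIF4A, the chromokinesin that shapes the midzone, had 11.1, 8.51 and 12.1. KIF4A has a near-identical retrogene, KIF4B, which was listed at no more than 0.0177 FPKM in any library. KIF15 had 3.27, 3.18 and 4.36 FPKM, a TaxR level close to that of the parent. KIF20B, which works in abscission, had 7.80, 7.84 and 13.6 FPKM and was the only mitotic member above 0 in TaxR against C4-2B. Its C4-2B and TaxR values were nearly equal.

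In 3 mitotic kinesins CabR did not reach the parental level. KIF14, a regulator of cytokinesis, had 7.501 FPKM in C4-2B cells, 3.27 in TaxR and 5.53 in CabR, and its log2 ratio of -0.99 in TaxR was the lowest of the group. KIFC1, the minus-end motor that clusters extra centrosomes, had 48.2, 29.8 and 35.9 FPKM. KIF22, the chromokinesin that moves chromosome arms, was the most abundant kinesin in C4-2B with 93.3 FPKM and had 74.6 in TaxR and 73.0 in CabR. KIF22 was also the exception in the step from TaxR to CabR, at a log2 ratio of -0.03.

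**Figure D3:**
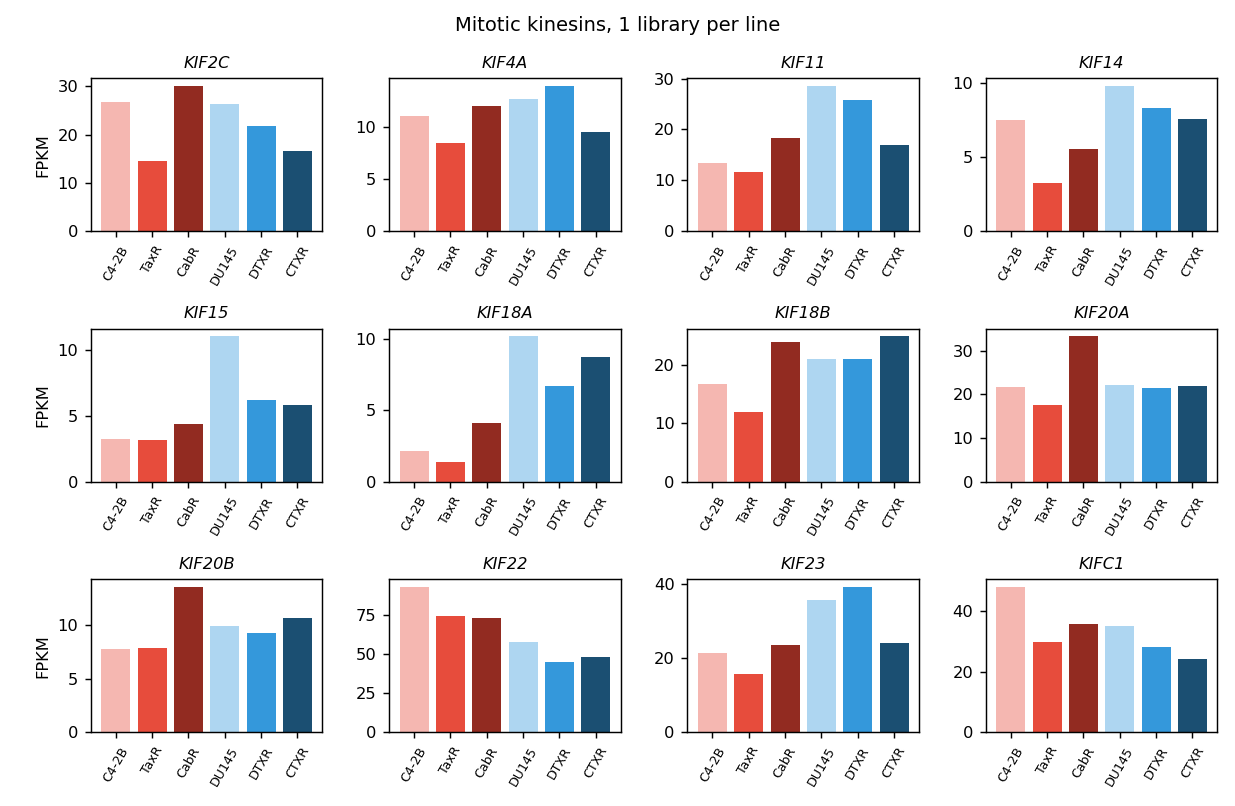
FPKM of the 12 measured mitotic kinesins in the 6 lines, with 1 bar per line, 1 library per bar, no error bars and a separate y axis from 0 in each panel. In the C4-2B lineage (red) TaxR is the lowest bar for 10 of the 12 genes and CabR the highest for 9. In the DU145 lineage (blue) the parent DU145 is the highest for 8.

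Most partners of these motors lay on the same side. Of 20 spindle and midzone partners, 19 lay below 0 in TaxR against C4-2B (median -0.40), against 50.2% of all measured genes. In CabR against TaxR 20 of 20 partners lay above 0 (median 0.66), against 46.5% of all measured genes. CENPE, which is on the partner list, is itself a further mitotic kinesin, named after its centromere location. It had 8.10 FPKM in C4-2B cells, 5.07 in TaxR and 8.51 in CabR. The only partner past the rule in TaxR was the cytokinesis kinase CIT, with 16.3 FPKM in C4-2B and 5.74 in TaxR. Cell cycle regulators, with FOXM1, MYBL2, TFDP1 and E2F, LIN and RBL genes, did not lie on that side as a list. Of 16, 10 lay above 0 and 6 below in TaxR against C4-2B (median 0.29), and 8 lay above and 8 below in CabR against TaxR (median 0.04). None was past the rule in any comparison of a resistant line. FOXM1, an activator of late cell cycle genes, had 59.6, 43.0 and 66.3 FPKM across C4-2B, TaxR and CabR, and MYBL2 48.5, 47.2 and 61.7. The activator E2F1 had 35.1, 45.3 and 44.7, with TaxR above the parent.

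General proliferation markers were split in TaxR against C4-2B, with 5 above 0 and 8 below. Over 13 of them the median log2 ratio was -0.01 in TaxR against C4-2B, 0.28 in CabR against C4-2B and 0.24 in CabR against TaxR. CDK1 and CCNB1 are on both this list and that of the spindle partners. MKI67 had 19.3, 13.7 and 20.2 FPKM and TOP2A 45.9, 28.4 and 48.1, with TaxR at the bottom. The replication genes PCNA, MCM2, MCM3, MCM5 and MCM6 were the 5 above 0, at log2 ratios of 0.43, 0.18, 0.53, 0.62 and 0.75, none past the rule. Among those below 0, the replication gene MCM7 lay at -0.006, as did TYMS, and RRM2 lay at -0.04. In these bulk libraries fewer cells in mitosis and less mitotic RNA per cell cannot be told apart. Over every scaling, filter, pseudocount and subtraction tried, the mitotic median in TaxR stayed between -0.45 and -0.33. With the median marker share of 1.46% of the DU145 profile subtracted from TaxR, an adjustment added after seeing the data, the mitotic median was -0.41 against C4-2B. KIF14 then passed the size rule as lower in TaxR, making 2 lower kinesins with KIF5C, and it did so also at the lowest and highest marker shares, 0.362% and 5.67%. It was near the rule already, at -0.9925 before subtraction, and the lowest, median and highest shares gave -1.0005, -1.03 and -1.13. With each library scaling instead, 1 kinesin was lower in TaxR, KIF5C.

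Along the DU145 lineage most mitotic kinesins lay below the parent in both sublines. Against DU145, 9 of 12 lay below 0 in DTXR (median -0.18) and 10 of 12 in CTXR (median -0.36), with the DU145 library shared by both. The median over all measured genes was 0.00 in both, and 47.4% and 48.2% of them lay below 0. None of the mitotic genes was past the size rule in either, where 10.5% and 12.9% of measured genes were. Between DTXR and CTXR the median was -0.10, with 5 genes above 0 and 7 below. The parent DU145 was the highest of the 3 libraries for 8 of 12 genes, against 31.6% of all measured genes.

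The members differed in the step at which this was seen. KIF15 had 11.1 FPKM in DU145 cells, 6.24 in DTXR and 5.87 in CTXR, so that nearly all of its difference was present in DTXR. KIF11 had 28.6, 25.8 and 17.0 FPKM and KIF23 35.6, 39.3 and 24.0, so that both differed mainly in CTXR. KIF2C had 26.3, 21.8 and 16.7 FPKM and KIFC1 35.1, 28.3 and 24.3, each with the parent at the top and CTXR at the bottom. KIF4A and KIF14 had 9.53 and 7.56 FPKM in CTXR against 12.8 and 9.83 in DU145.

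In the other mitotic genes CTXR was not the lowest of the lineage. KIF18A had 10.2, 6.69 and 8.79 FPKM across DU145, DTXR and CTXR, lowest in DTXR. KIF22 had 57.9, 44.8 and 48.3 FPKM, with the same order. KIF18B had 21.03, 21.1 and 25.0 FPKM, highest in CTXR, and KIF20A stayed between 21.6 and 22.1. KIF20B likewise lay within 9.25 to 10.7 FPKM. Of the spindle partners 17 of 20 lay below 0 in CTXR against DU145 (median -0.40), and of the proliferation markers 10 of 13 (median -0.41). Of all measured genes 48.2% did. MKI67 was lower, at 40.8 FPKM in DU145 and 19.5 in CTXR. TYMS, a nucleotide synthesis gene of the proliferation list, was higher in DTXR at a log2 ratio of 1.05, and the spindle partner KNSTRN was lower in CTXR against DTXR at -1.22.

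Between the sublines resistant to docetaxel and those resistant to cabazitaxel, the mitotic median was thus 0.61 in the C4-2B lineage and -0.10 in the DU145 lineage. The mitotic median minus the transport median of the same libraries was -0.43 in TaxR and 0.28 in CabR, each against C4-2B. It was -0.28 in DTXR and -0.39 in CTXR, each against DU145. None of these differences has a replicate.

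**Figure D4:**
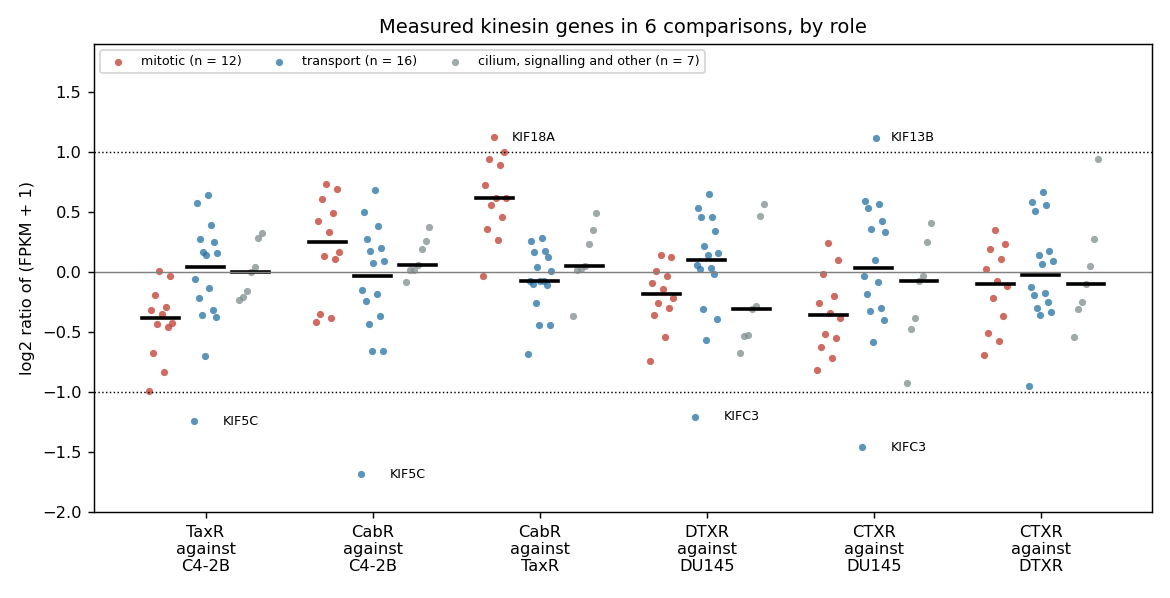
Log2 ratios of (FPKM + 1) of the 35 measured kinesins in the 6 comparisons, with 1 point per gene, colours for the role groups, thick bars for group medians and dotted lines at the size rule of 1 in either direction. Genes past the rule are named. The mitotic median lies at -0.39 in TaxR and 0.25 in CabR against C4-2B, and at 0.61 in CabR against TaxR.

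Transport kinesins went both ways in each comparison. The median over the 16 measured genes was 0.04 in TaxR and -0.04 in CabR against C4-2B, and 0.10 in DTXR and 0.03 in CTXR against DU145. Of the 16 genes, 8 lay above 0 and 8 below in TaxR, CabR and CTXR. In DTXR 11 lay above and 5 below, where 48.5% of all measured genes lay above 0. KIFC3 and KIF17 enter the TaxR and CabR counts and medians although both were under 1 FPKM throughout the C4-2B lineage. KIF16B was under 1 FPKM in C4-2B and TaxR. Without the filter on low values the median was -0.095 in TaxR and 0.21 in CTXR. Of all 41 kinesins 1 was past the size rule, as lower, in TaxR and 1 in CabR against C4-2B. In DTXR against DU145 it was again 1 lower, where 10.5% of measured genes were past it (5.37% higher and 5.1% lower). In CTXR against DU145 it was 1 higher and 1 lower, where 12.9% were (7.45% higher and 5.47% lower). From DTXR to CTXR no kinesin was past it, where 12.5% of measured genes were (7.29% higher and 5.25% lower). In none of these was the share of kinesins above that of all measured genes, whether over the 41 or over the 35 measured kinesins.

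KIF5C was the gene lower in TaxR and CabR. It encodes a heavy chain of conventional kinesin that is best known from neurons (ENSG00000168280, chromosome 2, 148875250 to 149026759, plus strand, GRCh38). Its level was 8.78 FPKM in C4-2B cells, 3.13 in TaxR and 2.04 in CabR, with log2 ratios to C4-2B of -1.24 and -1.69. In the DU145 lineage it had 9.02 FPKM in DU145 cells, 6.62 in DTXR and 5.69 in CTXR, with log2 ratios of -0.39 and -0.58, short of the size rule. All 4 resistant lines lay below their parent. Of the 10 measured coding genes that flank it, 5 on each side, none was past the rule in TaxR or CabR against C4-2B, and their median ratios were 0.18 and 0.11.

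The other conventional kinesin heavy chain that was measured did not share this. KIF5B, the ubiquitous heavy chain, had 57.4 FPKM in C4-2B cells, 64.5 in TaxR and 61.3 in CabR, beside 54.2 in DU145 and 60.4 and 47.7 in its sublines DTXR and CTXR. KIF5C was therefore a minor part of the conventional heavy chain RNA in each line. Of the 4 light chains, which link these heavy chains to cargo, KLC4 was lower in CabR against C4-2B (16.3 and 7.57 FPKM, log2 ratio -1.02). It stood at -0.92 in TaxR and -0.98 in DTXR but at -0.04 in CTXR, where its level of 11.5 FPKM was close to the 11.8 of DU145. KLC1, the most abundant, lay between 51.6 and 59.3 FPKM in the C4-2B lineage and between 83.1 and 106 in the DU145 lineage. KLC3 was lower in CTXR against DTXR, with 0.879 and 4.32 FPKM.

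KIFC3 was the gene lower in DTXR and CTXR (ENSG00000140859, chromosome 16, 57758217 to 57863053, minus strand). It had 86.7 FPKM in DU145 cells, 36.9 in DTXR and 30.9 in CTXR, with log2 ratios to DU145 of -1.21 and -1.46. This level in DU145 was the highest of any transport kinesin in any line, and both sublines lay well below it. In the C4-2B lineage the gene stayed under 1 FPKM, at 0.295 in C4-2B cells, 0.926 in TaxR and 0.832 in CabR. Subtracting the lowest DU145 marker share left 0.615 FPKM in TaxR, a log2 ratio to C4-2B of 0.32. The median share exceeded the TaxR level, which was therefore set to 0. The log2 ratio of -0.37 with that share is fixed by this setting and is not a measured level. The source of the low levels in TaxR and CabR was not tested. Of its 10 flanking genes none was past the rule in DTXR, and 1 was, as higher, in CTXR.

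KIF13B, a motor that carries membrane proteins and DLG1 complexes, was higher in CTXR (ENSG00000197892, chromosome 8, 29067279 to 29263124, minus strand). It had 2.53 FPKM in DU145 cells, 4.11 in DTXR and 6.67 in CTXR, with a log2 ratio of 1.12 in CTXR. In the C4-2B lineage it ran the other way, with 4.86 FPKM in C4-2B cells, 4.04 in TaxR and 2.71 in CabR. Its paralog KIF13A, an endosome and melanosome motor, had 13.5, 14.2 and 20.5 FPKM across DU145, DTXR and CTXR and 6.36, 7.76 and 4.44 in C4-2B, TaxR and CabR. Both were thus highest in CTXR and lowest in CabR within their lineages, KIF13A without passing the rule. Of the 10 genes flanking KIF13B, 1 was higher and 2 were lower by the rule in CTXR against DU145. Their median log2 ratios were -0.21 in TaxR and -0.36 in CabR against C4-2B. Against DU145 the medians were -0.02 in DTXR and 0.45 in CTXR, on the same side as KIF13B in CTXR.

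**Figure D5:**
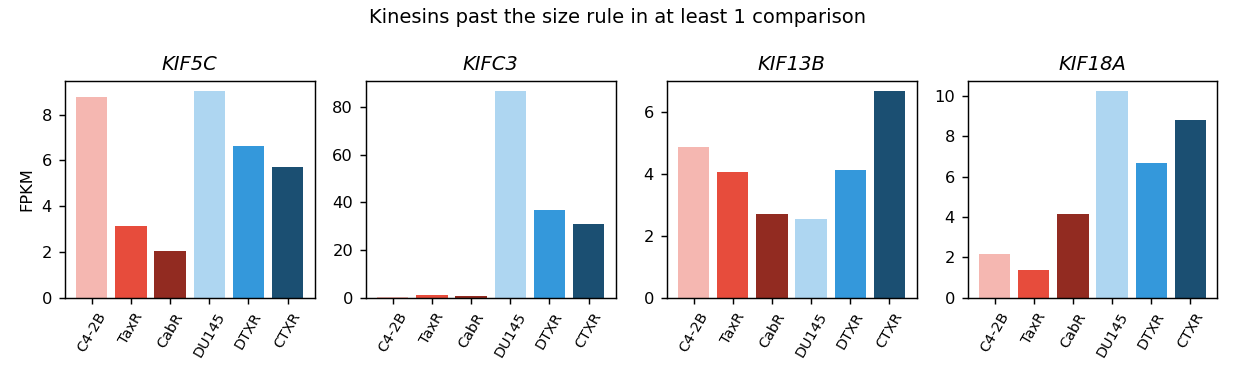
FPKM in the 6 lines of the 4 kinesins past the size rule in at least 1 of the 6 comparisons within a lineage, with 1 bar per line, 1 library per bar, no error bars and a y axis from 0 in each panel. KIF5C is lowest in TaxR and CabR (3.13 and 2.04 FPKM), KIFC3 is near 0 in the C4-2B lineage, KIF13B is highest in CTXR and KIF18A is lowest in TaxR.

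KIF1C and KIFC2, like KIF5B, were abundant in both lineages and short of the rule in the resistant lines. KIF1C, which carries vesicles and integrins, had 51.6 FPKM in C4-2B cells, 62.8 in TaxR and 58.5 in CabR. In the DU145 lineage it had 28.0 FPKM in DU145 cells, 44.5 in DTXR and 22.6 in CTXR, and the log2 ratio of -0.95 from DTXR to CTXR was short of the rule. DTXR stood apart upward for this gene, and CTXR lay below the parent. KIFC2, a minus-end motor, had 53.3 FPKM in C4-2B cells, 32.5 in TaxR and 33.5 in CabR, and 25.2, 16.7 and 18.9 in DU145, DTXR and CTXR. All 4 resistant lines lay below their parent, at log2 ratios of -0.40 to -0.70, none past the rule.

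The KIF3 complex, a heterotrimer that drives anterograde transport in cilia, had no subunit past the rule. KIF3A lay between 7.51 and 9.63 FPKM in the C4-2B lineage and between 3.59 and 4.90 in the DU145 lineage. KIF3B lay between 14.4 and 16.2 and between 9.12 and 9.82 FPKM. The accessory subunit KIFAP3 had 5.19, 8.65 and 7.07 FPKM across C4-2B, TaxR and CabR and 6.87, 6.76 and 10.4 in DU145, DTXR and CTXR. KIF3C, which pairs with KIF3A in some cells, had 5.49 FPKM in DU145 cells, 7.90 in DTXR and 8.79 in CTXR and 1.71 to 2.47 in the C4-2B lineage. Of 20 intraflagellar transport genes, whose products ride on this motor, IFT46 was higher in TaxR (5.10 FPKM in C4-2B and 12.8 in TaxR) and TTC21B lower in CabR (20.9 FPKM in C4-2B and 8.98 in CabR). None was past the rule in DTXR or CTXR against DU145, where 10.5% and 12.9% of measured genes were. IFT43 was higher in CTXR against DTXR at a log2 ratio of 1.02.

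Among the remaining transport members KIF1A had 13.3 FPKM in C4-2B cells, 17.8 in TaxR and 21.9 in CabR and no more than 1.07 in the DU145 lineage. KIF21A, a motor that also restrains microtubule growth at the cell cortex, had 24.7, 34.2 and 31.3 FPKM across DU145, DTXR and CTXR and 16.4 to 19.6 in the C4-2B lineage. KIF1B, a carrier of mitochondria and synaptic vesicle precursors, lay between 9.91 and 21.3 FPKM, with a log2 ratio of -0.38 in TaxR and -0.37 in CabR. KIF16B and KIF17 stayed at or below 4.09 and 1.68 FPKM. None of these passed the rule against a parent.

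Few partners of the transport motors were past the rule in the C4-2B lineage. Of 24 cargo adaptors and regulators none was past the rule in TaxR or CabR against C4-2B, where 8.16% and 8.87% of measured genes were. In the DU145 lineage the adaptor MAPK8IP2 was higher in DTXR alone, with 5.00 FPKM in DU145 cells, 11.6 in DTXR and 4.31 in CTXR. MAP7, which recruits conventional kinesin to microtubules, was lower in both sublines, at 5.62, 2.14 and 0.829 FPKM. From DTXR to CTXR, MAPK8IP2 and MAP7D1 were lower, at log2 ratios of -1.25 and -1.09. Among 25 genes of cytoplasmic dynein and dynactin, the opposing motor, the heavy chain gene DYNC1H1 was lower in CabR (67.9 FPKM in C4-2B cells, 39.999 in TaxR and 30.1 in CabR). The light chain DYNLRB2 was higher in TaxR (0.529 and 3.50 FPKM in C4-2B and TaxR). None of the dynein and dynactin genes was past the rule in DTXR or CTXR against DU145, where 10.5% and 12.9% of measured genes were.

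None of the 10 kinesins of cilia, signalling and other functions passed the rule against a parent, where 8.16% to 12.9% of measured genes did. KIF2A, a depolymerase of spindle poles and growing neurites, was the most abundant, with 13.1 FPKM in C4-2B cells, 16.6 in TaxR and 17.2 in CabR, beside 11.6 in DU145 and 17.7 and 14.1 in its sublines DTXR and CTXR. All 4 resistant lines lay above their parent, by log2 ratios of 0.25 to 0.56. KIF2A overlaps DIMT1, KIF24 overlaps UBAP1 and KIF9 overlaps KLHL18, each on the opposite strand, so their levels carry the same uncertainty as KIF18A. KIF2A also overlaps IPO11 on its own strand, where a strand setting cannot separate them. KIF9 had 12.2, 10.5 and 12.4 FPKM in the C4-2B lineage and 3.49 to 4.55 in the DU145 lineage. KIF24, a centriolar depolymerase that restrains cilia, lay between 2.54 and 3.98 FPKM in all lines.

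The remaining measured members had at most 3.11 FPKM in any line. KIF26A, an atypical kinesin of signalling, had 3.11 FPKM in DU145 cells, 1.57 in DTXR and 1.16 in CTXR, a log2 ratio of -0.93 in CTXR. KIF7 had 1.67, 2.70 and 1.54 FPKM there and at most 0.0752 in the C4-2B lineage, and it overlaps TICRR on the opposite strand. KIF26B had 0.652, 0.139 and 1.19 FPKM and KIF27 1.34, 0.628 and 0.684 in the same lines. KIF27 had 0.724, 0.544 and 0.969 FPKM across C4-2B, TaxR and CabR, where KIF26A stayed at or below 0.448 and KIF26B at or below 0.009.

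Selection in 2 parental lines gives the comparison of stages its replication. A limma model with terms for stage and lineage was therefore fitted over the 6 libraries, and p-values were adjusted over the 17436 measured genes by the Benjamini-Hochberg method. At an adjusted p under 0.05 it called none of the 35 measured kinesins and 0% of all measured genes, at each of the 3 contrasts of stages. At an unadjusted p under 0.05 limma gave 1 kinesin for the docetaxel-resistant stage against the parents (2.86%, against 4.43% of all genes, 1.66% higher and 2.76% lower). It gave 1 for the cabazitaxel-resistant stage against the parents (2.86%, against 4.79%, 1.97% higher and 2.82% lower) and 0 between the resistant stages (against 2.39%, 1.22% higher and 1.16% lower). KIF5C had the smallest p, with a mean log2 ratio of -1.14 (SE 0.36, limma adjusted p = 0.86) in the cabazitaxel-resistant lines, which lay below the parent in both lineages. KIFC2 had a mean of -0.63 (SE 0.24, limma adjusted p = 0.93) in the docetaxel-resistant lines, again below the parent in both. With 2 lineages such a fit has little power. On simulated data for the docetaxel-resistant stage against the parents, over 17436 genes, it recovered 0 of 50 genes changed by a log2 ratio of 1 and 14 of 50 changed by 2. Differences near a log2 ratio of 1 were thus not detectable there, and the lack of calls does not show that the kinesins did not differ.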

How the data were processed

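Per the file headers, the authors' deposited tables, 1 for each line, give FPKM under 60658 Ensembl identifiers. The build GRCh38 and the tools HISAT, StringTie and Cuffnorm are listed, with neither version nor role, in the submitters' processing notes. Per the labels' protocols the libraries were directional. Annotation, strand setting and joint scaling: not given in the sources used here. No count model was applied to FPKM, and a gene at 0 is reported as listed at 0.

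Members and gene lists were chosen with earlier results of these data known, and the DU145 to C4-2B comparison, the promoter search and the subtraction of a DU145 share from TaxR were added after seeing the data. Symbols were matched through a gene name table (56550 identifiers), and coordinates come from GENCODE release 29 (GRCh38). A pseudocount of 1 FPKM was used on the log2 scale, and a gene was measured at 1 FPKM or more in at least 1 library. Members named in full are those past the size rule, which is a log2 ratio of 1, and the 3 most abundant of each role group, and the others were named after their values were seen. From each other list up to 4 genes past the rule were to be named. limma's moderated two-sided tests were run with a trend on mean level, and the procedure was tested on simulated data. Alternatives were other pseudocounts, filters, scalings and role assignments and leaving out each library. Promoter windows are RefSeq's. Python 3.11.15 with numpy 2.4.6, pandas 2.3.3 and matplotlib 3.10.9 and R 4.3.3 with limma 3.58.1 were used.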

Additional observations from a re-analysis of the deposited data

Results flagged for a closer look

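For 2 kinesins past the size rule against a parent, the ratios of the resistant lines had opposite signs in the 2 lineages. The difference between lineages was not tested. KIF3C and KIF21A also had opposite signs in the 2 lineages but were short of the rule. KIF13B had log2 ratios of -0.22 in TaxR and -0.66 in CabR against C4-2B, and of 0.53 in DTXR and 1.12 in CTXR against DU145. KIFC3 had 0.57 in TaxR and 0.50 in CabR, at levels under 1 FPKM, and -1.21 in DTXR and -1.46 in CTXR. Its TaxR ratio was 0.32 with the lowest DU145 marker share removed. The median share exceeded its TaxR level, which was set to 0, and this fixed the ratio at -0.37. The median log2 ratio of the mitotic kinesins also had opposite signs in the step to cabazitaxel resistance, 0.61 in CabR against TaxR and -0.10 in CTXR against DTXR, again without a test.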

How the results depend on the processing

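Each comparison rests on 1 library per line, and depth is unknown, so small ratios of low genes carry no limit of error. No paired analysis was possible because each line has 1 library and the labels give no replicate numbers, apart from the limma fit, whose lineage term compares the stages within each parental line. The mitotic medians kept their sign under each alternative tried. With a pseudocount of 0.1 FPKM the higher kinesins numbered 1 in TaxR and 1 in CabR against C4-2B, 3 in CabR against TaxR and 2 in CTXR against DTXR. The lower ones numbered 2 in TaxR, 2 in DTXR and 2 in CTXR against the parent and 1 in CabR against TaxR. Between the parents it gave 11 higher and 5 lower, and KIFC3 was past the rule in TaxR (1.38) and CabR (1.24). With the same non-mitochondrial total, 2 were higher in CabR against TaxR, 2 lower in CTXR against DU145 (mitotic median -0.49) and 1 lower in CTXR against DTXR. Between the parents this scaling gave 10 higher and 1 lower, a mitotic median of 0.58 and a transport median of 0.25. At the same upper quartile 2 were higher in CabR against TaxR, and between the parents 9 were higher and 2 lower, with medians of 0.44 and 0.11.

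Without a filter the transport median was -0.095 in TaxR, 0.21 in CTXR against DU145 and 0.078 in CTXR against DTXR. The mitotic minus transport difference was then -0.25 in TaxR, 0.15 in CabR against C4-2B and -0.55 in CTXR against DU145. At a filter of 5 FPKM the transport median was -0.17 in CabR against C4-2B, -0.15 in CTXR against DTXR and -0.34 between the parents, where 4 kinesins were higher. The difference was then 0.41, 0.051 and 0.65. With the median DU145 marker share removed, TaxR had 2 lower kinesins, a transport median of -0.11 and a difference of -0.29 against C4-2B, and 2 kinesins were higher in CabR against TaxR. Levels taken below 0 by the subtraction, that of KIFC3 among them, were set to 0 and enter this transport median. At the lowest share the counts were also 2 lower and 2 higher. At the highest share TaxR had 2 lower kinesins, a transport median of -0.14 and a difference of -0.31, and CabR against TaxR had 3 higher, a mitotic median of 0.74 and a difference of 0.79. limma called 0 kinesins under each alternative, and between 0 and 0 without any single library.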
